A study of Mus musculus with 6 samples.

Results

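The genes described here are p21 (Cdkn1a), 3 other inhibitors of cyclin-dependent kinases (Cdkn1b, Cdkn2c and Cdkn2d), the transcription factor p53 (Trp53) and 5 genes that p53 is known to switch on (Mdm2, Ccng1, Pmaip1, Bax and Bbc3). They were measured in embryonic mouse hearts taken at day 11.5 of gestation, with 1 CodeLink array for each of 6 samples and biotin as the only label. In 3 samples, the mutants, Dicer was deleted by Cre recombinase expressed from the Nkx2.5 locus, a gene of cardiac progenitors, and the 3 other samples were control hearts. The labels give no genotype for the controls, so whether they also carried the Cre allele is not known here. Whole hearts were taken, which also hold cells outside the lineage of that Cre, and fewer cells of a type cannot be told apart from less RNA per cell. The labels do not say whether the samples of a group were separate embryos, pools or litters, so the p-values reflect the spread among these 6 arrays alone, and some of that spread may be technical.

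Members were chosen by symbol: every probe that the platform table pairs with 1 of the 10 genes, 8 probes in all among 17727 probes tested. Of the 10 genes, 7 had a probe, and Cdkn2c had 2. For Cdkn1b, Trp53 and Bax the table listed no probe, so these genes were not analysed here, and the level of the p53 transcript itself is among them. All 8 member probes were tested, since the scanner flag placed each above its local background on at least 3 of the 6 arrays. The question was whether Cdkn1a differed alone between mutant and control hearts or with other p53 targets.

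p53 is a transcription factor that is kept low by Mdm2, the ubiquitin ligase that marks it for destruction, and by its relative Mdm4. DNA damage, through the kinases encoded by Atm, Chek2 and others, releases p53 from this control. Released p53 switches on Cdkn1a, which halts the cell cycle, Mdm2, which closes the feedback loop, the cyclin G1 gene Ccng1, and the cell death genes Bax, Bbc3 (Puma) and Pmaip1 (Noxa). Cdkn1a and Cdkn1b belong to the Cip/Kip family, whose proteins bind cyclin and kinase together, and Cdkn2c and Cdkn2d to the INK4 family, whose proteins bind the kinases of cyclin D alone. Cdkn1a is also regulated without p53, and its mRNA is a known target of the miR-17 family of miRNAs, which like nearly all miRNAs are cut to their mature form by Dicer. No miRNA was measured on these arrays.

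The miRNA sequences are shown because they are the Dicer products best known to act on Cdkn1a. All 6 are mature mouse sequences from RefSeq (GRCm38.p6), written 5′ to 3′ with the seed, bases 2 to 8, in capitals, and the 6 share 1 seed.
miR-17-5p: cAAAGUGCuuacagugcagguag
miR-20a-5p: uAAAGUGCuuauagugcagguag
miR-20b-5p: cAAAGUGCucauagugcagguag
miR-93-5p: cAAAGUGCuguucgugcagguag
miR-106a-5p: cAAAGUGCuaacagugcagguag
miR-106b-5p: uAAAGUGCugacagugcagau

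The promoters of Cdkn1a, Ccng1 and Mdm2 are shown because they let the p53 target genes that were measured be set beside the letters p53 is known to bind. Each is the 250 bases before a transcription start in RefSeq (GRCm38.p6), 5′ to 3′ on the strand of the gene. Capitals mark matches to the p53 binding motif, which is searched by name because it holds ambiguous letters: a decamer that fits it at every base, or 2 abutting decamers with at most 1 of the 20 bases off. The decamer pattern is its own reverse complement, so each search covers both strands. Cdkn1a has 2 annotated starts, at 2 windows on chromosome 17.
Cdkn1a, upstream start, chr17:29090729-29090978, plus strand: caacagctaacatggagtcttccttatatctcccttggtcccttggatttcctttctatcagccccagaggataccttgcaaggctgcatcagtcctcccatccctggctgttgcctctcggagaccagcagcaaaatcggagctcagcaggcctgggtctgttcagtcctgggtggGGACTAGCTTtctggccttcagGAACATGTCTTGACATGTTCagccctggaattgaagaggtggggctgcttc
Cdkn1a, downstream start, chr17:29093519-29093768, plus strand: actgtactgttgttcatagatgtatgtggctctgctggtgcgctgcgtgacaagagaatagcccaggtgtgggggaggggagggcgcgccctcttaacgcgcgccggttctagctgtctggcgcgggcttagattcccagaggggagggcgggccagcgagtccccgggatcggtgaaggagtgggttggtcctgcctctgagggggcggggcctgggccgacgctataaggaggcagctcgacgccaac
Ccng1, chr11:40755287-40755536, minus strand: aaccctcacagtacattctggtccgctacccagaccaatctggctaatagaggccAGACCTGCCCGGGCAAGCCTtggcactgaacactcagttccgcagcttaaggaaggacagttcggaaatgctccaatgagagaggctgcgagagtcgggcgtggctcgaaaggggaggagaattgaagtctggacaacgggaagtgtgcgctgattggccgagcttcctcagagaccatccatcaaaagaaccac
Mdm2, chr10:117710759-117711008, minus strand: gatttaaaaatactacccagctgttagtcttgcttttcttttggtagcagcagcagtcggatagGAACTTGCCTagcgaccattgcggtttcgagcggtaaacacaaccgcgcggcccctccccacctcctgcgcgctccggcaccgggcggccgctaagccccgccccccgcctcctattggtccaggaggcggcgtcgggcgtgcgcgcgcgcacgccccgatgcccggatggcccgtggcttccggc

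The upstream window of Cdkn1a held the element of 20 bases, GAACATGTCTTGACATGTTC, from 51 to 32 bases before the start, and a further decamer from 73 bases before it that overlaps no other match. Ccng1 held such an element too, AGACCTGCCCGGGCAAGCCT, from 195 to 176 bases before its start. In Mdm2 the window had 1 decamer, 186 bases before the start. Elements of 20 bases occurred in 25 of 32851 windows of the same length (0.0761%), and at least 1 decamer in 7.13%. Single decamers were also found for Cdkn2d, Trp53 and Bax, and none in the windows of Cdkn1b, Cdkn2c and Bbc3 or at the downstream start of Cdkn1a. Sequence was not used here for Pmaip1. Only the bases before each listed start were searched. Sites within a gene, such as in an intron, or farther upstream were not counted, for Mdm2 as for the others. A match describes letters in the window and is no measure of binding.

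Cdkn1a was the member with the largest difference. Its normalized log2 intensity was 9.75, 10.15 and 10.10 in mutants 1 to 3 and 8.94, 8.67 and 7.91 in controls 1 to 3. Every mutant lay above every control, the mutants within a narrow range and control 3 well below the other controls. The means were 10 ± 0.22 and 8.51 ± 0.53 (SD, n = 3 each), a log2 difference of 1.49 ± 0.27 (SE) or 2.81-fold, with a 95% interval of 1.80 to 4.38. In limma's test the unadjusted p was 0.00104 and the Benjamini-Hochberg adjusted p, over 17727 probes, was 0.151, so Cdkn1a did not pass at 0.05. Of the probes tested 9 passed (0.0508%), 5 of them higher (0.0282%) and 4 lower (0.0226%) in the mutants, and 0 of the 8 member probes did. An unadjusted p under 0.05 was reached by 1 member probe, that of Cdkn1a, and by 10% of all probes (6.75% higher and 3.26% lower). By p it ranked 122 of the 17727. A log2 difference of at least 1 was seen in 1 member probe and in 0.812% of all probes, and a difference of at least 1 towards the mutants in 0.226%.

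The same order was seen in the values as deposited. The authors' normalized intensity of Cdkn1a, a linear value, was 10.5, 14.5 and 13.9 in the mutants against 5.74, 4.72 and 2.45 in the controls. Its mean was 13 ± 2.13 against 4.30 ± 1.68 (SD, n = 3 each), a ratio of 3.02. All 6 spots were flagged good, with background-subtracted intensities from 185 in control 3 to 1140 in mutant 2.

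**Figure D1:**
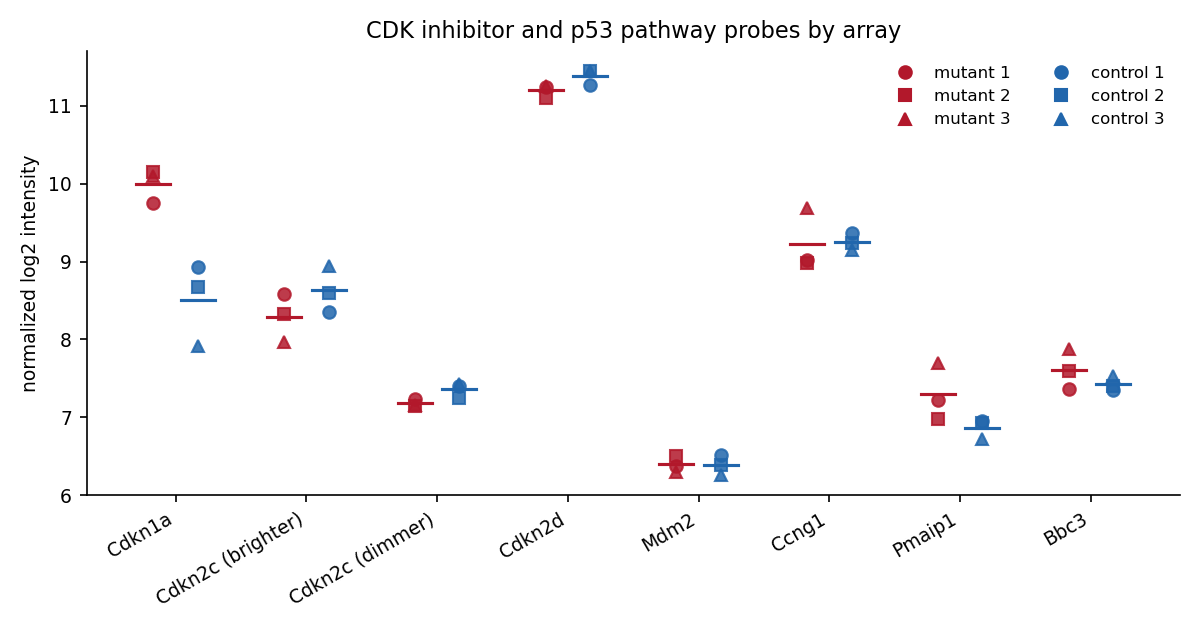
Normalized log2 intensity (vertical axis) of the 8 member probes in each of the 6 arrays; red marks mutants, blue marks controls, the shape gives the replicate, and the short bar the group mean of 3 arrays. Cdkn1a separates the groups most, with its lowest mutant at 9.75 and its highest control at 8.94.

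Whether Cdkn1a passed the threshold depended on single arrays. Without control 3, its lowest array, the log2 difference was smaller, 1.19 ± 0.16 (SE), but the adjusted p was 0.0448, in a fit in which 320 probes (1.81%) passed. Without any other single array it stayed between 1.41 and 1.70, with adjusted p from 0.169 to 0.75. With weights estimated for each array it was 1.33 (adjusted p = 0.00669), where 23.9% of all probes passed. The array titles of mutants 1 and 2 and control 1 start with the same code, and mutant 3, control 2 and control 3 each have another; what the code stands for is not stated. With the code as a block the Cdkn1a difference was 1.01 ± 0.20 (SE, adjusted p = 0.0549, with 7.56% of probes passing). That value sets mutants 1 and 2 against control 1 alone, with 1 residual degree of freedom per probe, and its SE assumes that the lone control varies like the other arrays. The direction was the same in all 22 alternatives, from 1.01 to 1.70.

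**Figure D2:**
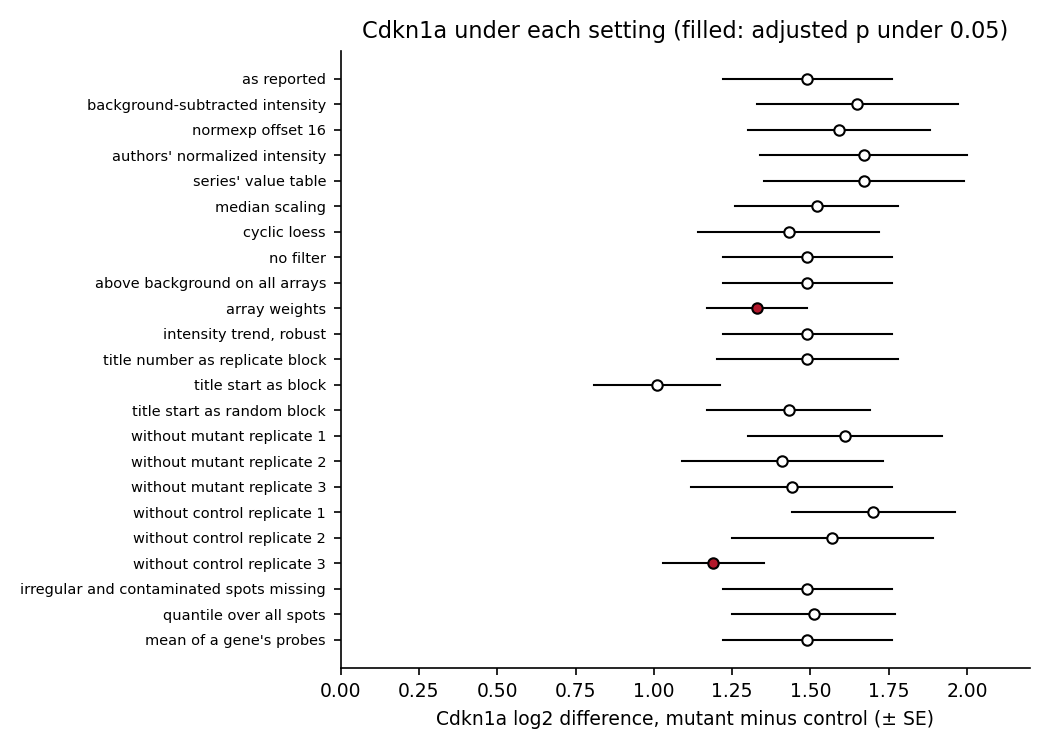
Log2 difference of Cdkn1a, mutant minus control, with its SE (horizontal axis), as reported and under each alternative setting (rows); filled points passed at an adjusted p under 0.05. All values lie above 0, between 1.01 and 1.70, and 2 alternatives passed, the array weights and the fit without control 3.

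The INK4 members, Cdkn2c and Cdkn2d, had differences below 0, and neither passed. Cdkn2d, which encodes the INK4 protein p19, was at 11.24, 11.10 and 11.26 in the mutants against 11.27, 11.44 and 11.45 in the controls. Each mutant was below each control, mutant 3 by only a hair, and the difference was -0.19 ± 0.10 (SE, 95% interval -0.43 to 0.05, limma adjusted p = 0.568). The brighter probe of Cdkn2c, the INK4 gene for p18, gave 8.58, 8.33 and 7.97 in the mutants against 8.35, 8.60 and 8.95 in the controls. Those groups overlapped, with mutant 1 above control 1, and the difference was -0.34 ± 0.21 (SE, adjusted p = 0.607). Without mutant 3 or without control 3 it was -0.18, and with the title code as a block 0.10. The dimmer Cdkn2c probe read 7.24, 7.15 and 7.15 against 7.41, 7.25 and 7.43, which put the mutants below the controls by 0.18 on average, with mutant 1 and control 2 nearly level (adjusted p = 0.564).

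Inhibitor genes outside the chosen members were looked at as well, since they complete both families. The full list of 8 inhibitor genes includes the members, and of its 6 measured genes 0 passed in either direction. With Cdkn1a, Cdkn2c and Cdkn2d counted in, the median difference was -0.03 against 0.01 over all genes tested. Cdkn1c, the Cip/Kip gene for p57 and an imprinted growth inhibitor, gave 0.04 ± 0.20 (SE). Cdkn2b gave 0.07 ± 0.15, and Cdkn2a, whose locus also encodes the p53-stabilising protein Arf, gave -0.11 ± 0.08. The probe of Cdkn2a was near the lower end of the scale, at 6.60 ± 0.03 in mutants and 6.71 ± 0.01 in controls (SD, n = 3 each).

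Mdm2, the feedback target, differed by close to 0 between the groups. Its probe read 6.38, 6.51 and 6.30 in the mutants against 6.51, 6.38 and 6.26 in the controls, and the groups lay on top of each other. The difference was 0.01 ± 0.11 (SE, 95% interval -0.25 to 0.27, limma adjusted p = 0.98). This probe was dim, with subtracted intensities of 22.4 to 39.8, and in mutant 3 it was not above background, so the offset of the background correction shrinks its difference. On the authors' scale, without that offset, its mean was 0.410 ± 0.087 in mutants and 0.412 ± 0.0954 in controls (SD, n = 3 each).

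Ccng1, which carries the p53 element shown above and encodes cyclin G1, read 9.02, 8.98 and 9.69 in the mutants against 9.36, 9.23 and 9.15 in the controls. Mutants 1 and 2 were below all controls and mutant 3 above them all. The difference was -0.02 ± 0.20 (SE, 95% interval -0.50 to 0.46, limma adjusted p = 0.977). Without mutant 3 it was -0.25 (adjusted p = 0.33).

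Among the cell death genes, Pmaip1, which encodes the BH3 protein Noxa, came closest to the pattern of Cdkn1a. It read 7.23, 6.97 and 7.70 in the mutants against 6.95, 6.93 and 6.72 in the controls. Mutant 2 exceeded control 1 by little, so the groups were separate mainly through mutant 3, and on the authors' normalized intensity they overlapped. The difference was 0.43 ± 0.19 (SE, 95% interval -0.03 to 0.89, limma adjusted p = 0.524). The spot of mutant 2 was flagged irregular, and with such spots set to missing the difference was 0.59 (adjusted p = 0.354). Without mutant 3 it was 0.23 (adjusted p = 0.439), with array weights 0.20 (adjusted p = 0.236) and with the title code as a block 0.14. The Pmaip1 probe was dim, with subtracted intensities of 52.6 to 135, so the offset shrinks its difference. That difference was 0.69 on the background-subtracted intensity (adjusted p = 0.529) and 0.65 on the authors' normalized intensity (adjusted p = 0.559). Bbc3, which encodes the BH3 protein Puma, read 7.37, 7.59 and 7.88 in the mutants against 7.34, 7.40 and 7.53 in the controls. Mutant 1 fell among the controls, and the difference was 0.19 ± 0.15 (SE, 95% interval -0.16 to 0.54, adjusted p = 0.674). It was 0.06 without mutant 3 and 0.31 without mutant 1 (adjusted p = 0.832 and 0.651). Mutant 3 was the highest array for Ccng1, Pmaip1 and Bbc3, but not for Cdkn1a.

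**Figure D3:**
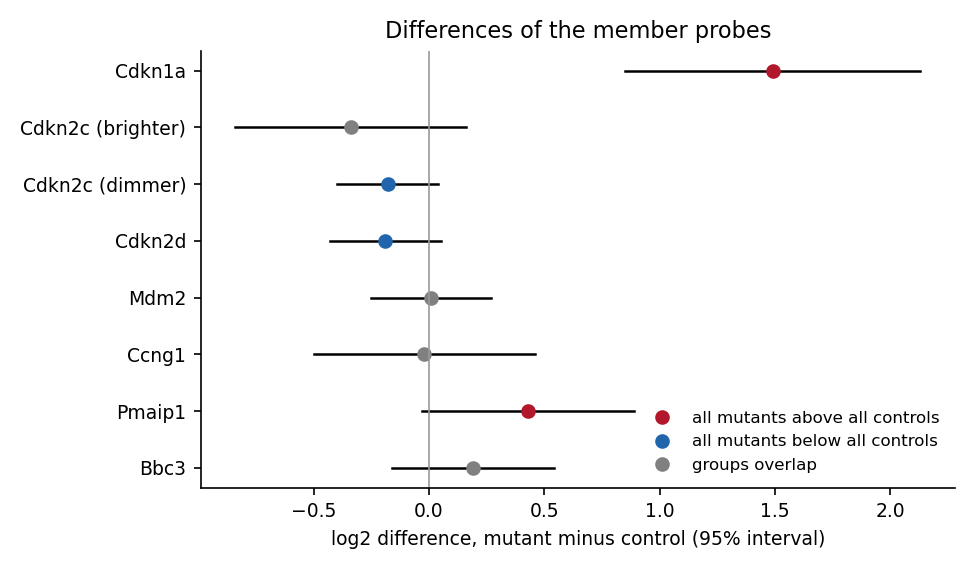
Log2 difference, mutant minus control, of the 8 member probes (points) with 95% intervals from limma (lines), 3 arrays per group; colour gives whether the groups were separate. The interval of Cdkn1a, 0.85 to 2.13, is the only 1 of the 8 that does not include 0.

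In all, the groups did not overlap in 4 of the 8 member probes, 2 higher in the mutants (Cdkn1a and Pmaip1) and 2 lower (Cdkn2d and the dimmer probe of Cdkn2c). Over all probes this was so for 15.2%, with 9.89% higher and 5.28% lower. The response of Cdkn1a was compared with that of each other member by the difference of the 2 log2 values within each array. It was larger by 1.83 than that of Cdkn2c, 1.68 than that of Cdkn2d, 1.51 than that of Ccng1, 1.48 than that of Mdm2, 1.30 than that of Bbc3 and 1.06 than that of Pmaip1. In each of the 6 pairs all mutants lay above all controls, with p = 0.1 in the two-sided exact permutation test, also after adjustment over the 6 pairs. That is the smallest p this test can give with 3 against 3 arrays, so it cannot reach 0.05 here. All 6 pairs use the same Cdkn1a values, which separate the groups by themselves, so they are not 6 independent results.

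The wider set of known p53 targets was taken from general knowledge: 44 genes, 40 with a probe and 38 tested, the member genes among them. Of these 0 rose and 0 fell at an adjusted p under 0.05, against 0.06% of the 15012 genes tested, each by its brightest probe. Unadjusted p was under 0.05 for 3 higher genes, Cdkn1a, Psrc1 and Epha2, and 1 lower gene, Rprm, where 10.2% of all genes reached it, 6.71% higher and 3.47% lower. The groups were separate in 4 higher genes and 1 lower gene, against 9.72% and 5.48% of all genes. Their median difference was 0.01, equal to the median of 0.01 over all genes, and 22 of 38 were above 0, against 52.4% of all genes. Psrc1, a spindle protein gene, gave 0.45 ± 0.14 (SE), with 9.46, 9.38 and 9.79 in mutants and 8.99, 9.06 and 9.24 in controls (limma adjusted p = 0.351). Rprm, the gene of the cell cycle inhibitor reprimo, gave -0.35 ± 0.11 (adjusted p = 0.359). Epha2 gave 0.30 ± 0.10 by its brighter probe, while its dimmer probe gave 0.11 ± 0.17 and its groups overlapped. Next to Cdkn1a at 1.49, no other of the 38 had a difference above 0.45.

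**Figure D4:**
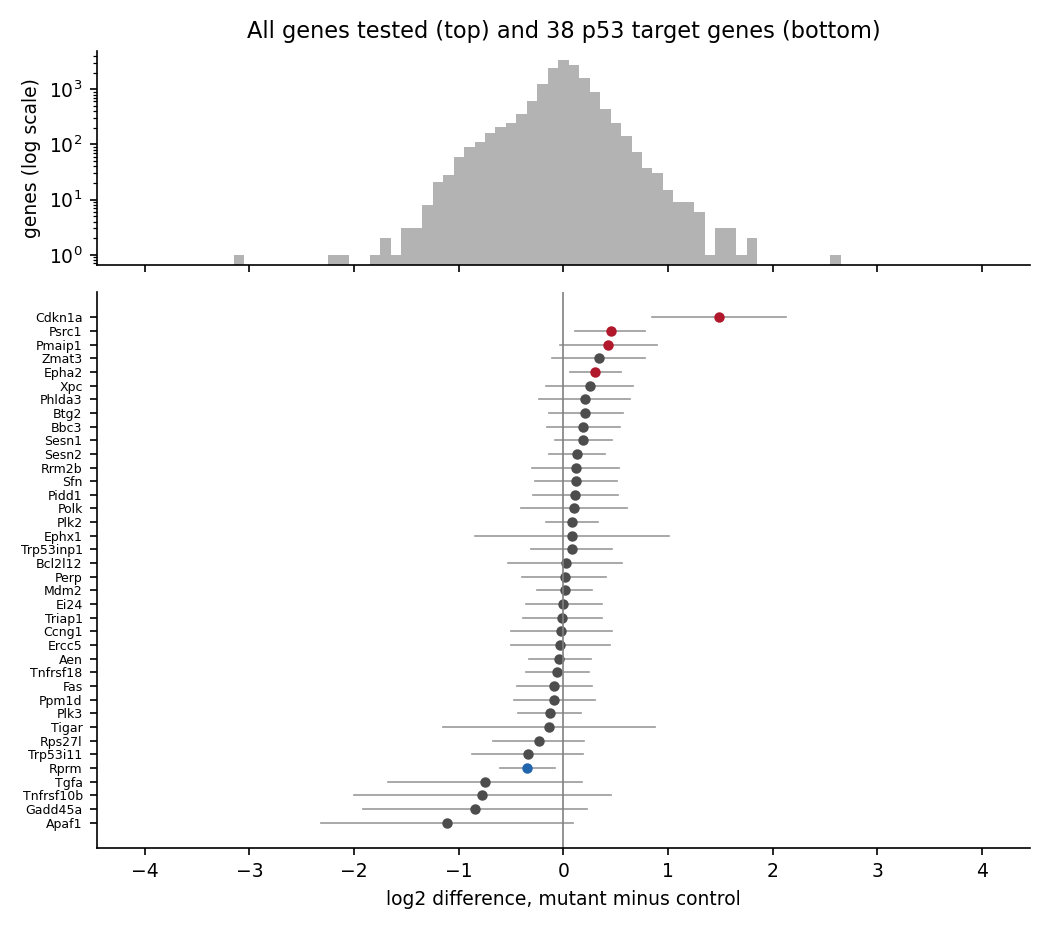
Top: number of genes (log scale) at each log2 difference, mutant minus control, over all 15012 genes tested. Bottom: the 38 p53 target genes tested with their 95% intervals; red marks genes with all mutants above all controls, blue the reverse, grey an overlap, and the set spans -1.11 to 1.49 with its median at 0.01.

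Several classical targets gave values near or below 0; the genes named in this paragraph apart from Apaf1 were chosen after their values were seen. Perp, Plk2, Trp53inp1 and Ei24 gave 0.01, 0.08, 0.08 and 0.00. Other targets lay higher, such as Epha2 at 0.30, Xpc at 0.25, Btg2 and Phlda3 at 0.21 and Sesn1 at 0.19, and none of them passed. Of the 38 tested, 22 were above 0. Gadd45a, a growth arrest and DNA damage gene, read 9.36, 8.82 and 8.90 in the mutants against 10.58, 10.23 and 8.82 in the controls. Controls 1 and 2 stood high while control 3 matched the mutants, and the difference was -0.85 ± 0.45 (SE, limma adjusted p = 0.568). The growth factor gene Tgfa showed the same arrangement, with 7.95, 7.53 and 7.79 against 9.04, 8.91 and 7.56. It was not particular to p53 targets. The neural marker Sox2 read 7.44, 6.95 and 7.30 against 8.62, 8.59 and 6.71. The erythroid marker Slc4a1 read 9.22, 8.52 and 8.44 against 10.54, 10.27 and 7.99. Without control 3 Gadd45a gave -1.38 (adjusted p = 0.0463) and Tgfa -1.22 (adjusted p = 0.0448), so that both passed in that fit beside Cdkn1a, in the opposite direction, as did 1.81% of all probes. The death receptor gene Tnfrsf10b gave -0.78 ± 0.51 (SE), and Apaf1, the scaffold of the apoptosome, -1.11 ± 0.50; in both, mutant 3 lay above control 3 while mutants 1 and 2 lay below controls 1 and 2. Between mutants 1 and 2 and control 1 alone, which share a title code, Tnfrsf10b gave -1.68, Gadd45a -1.49, Apaf1 -1.96 and Tgfa -1.31. Zmat3, an RNA-binding p53 target, gave 0.71 there. Over all arrays Zmat3 gave 0.34 ± 0.19 (SE, limma adjusted p = 0.578), and its groups overlapped. These p53 targets were picked by their p in the fit with the title code as a block. That fit rests on 1 control array, so its values are given here without a test.

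Among regulators of p53 the smallest p belonged to the kinase genes Atm and Chek2 and to Mdm4. Of 18 tested genes of 23, 0 passed, 3 had an unadjusted p under 0.05, all higher, against 6.71% of all genes, and the median was 0.01. Atm, the kinase that senses double-strand breaks, read 9.98, 9.94 and 10.06 in the mutants against 9.23, 9.36 and 9.42 in the controls. The groups were tight and well apart, with a difference of 0.65 ± 0.09 (SE, 95% interval 0.43 to 0.88, limma adjusted p = 0.113). A dimmer probe of Atm gave -0.01 ± 0.35, and the mean of both probes 0.32. Mdm4, the inhibitor of p53, read 9.44, 9.32 and 9.20 against 8.35, 8.46 and 8.88. Its difference was 0.76 ± 0.16 (adjusted p = 0.198), while its dimmer probe gave 0.07 ± 0.10. Both passed without control 3, Atm at 0.69 (adjusted p = 0.0463) and Mdm4 at 0.91 (adjusted p = 0.0448), in the fit in which 1.81% of probes did. Chek2, the checkpoint kinase downstream of Atm, gave 0.45 ± 0.16 (adjusted p = 0.403).

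**Figure D5:**
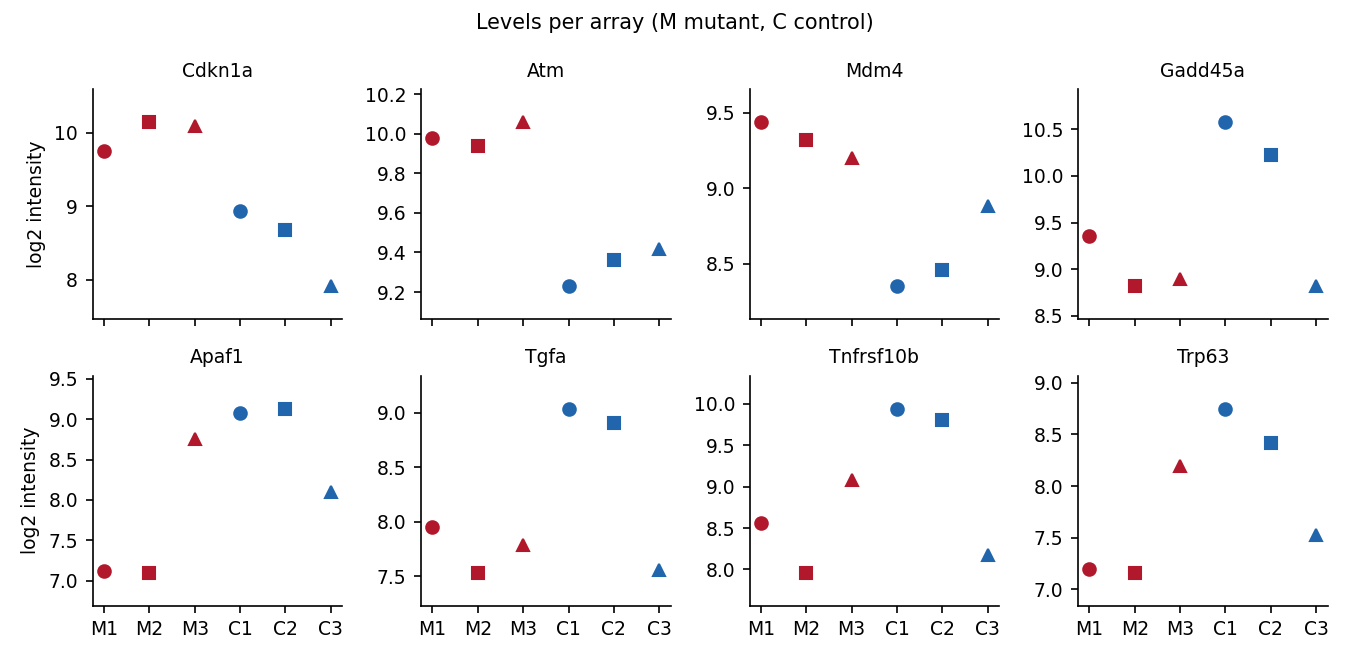
Normalized log2 intensity (vertical axes, each on its own scale and not starting at 0) of 8 genes of the p53 network in mutants 1 to 3 (M, red) and controls 1 to 3 (C, blue). In Cdkn1a, Atm and Mdm4 all mutants lie above all controls; in Gadd45a and Tgfa control 3 lies with the mutants, and in Apaf1 and Trp63 mutant 3 lies above control 3.

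A list of cyclins, their kinases, pocket proteins, E2F factors and other cell cycle genes, not all of them of G1, was measured in 21 of 23 genes. None passed in limma's test, 3 were higher and 0 lower at an unadjusted p under 0.05, against 6.71% and 3.47% of all genes, and the median was 0.08. Cdc25a, the phosphatase that activates the kinase Cdk2, gave 0.59 ± 0.16 (SE, adjusted p = 0.282), Ccna2, cyclin A2, 0.28 ± 0.09 (adjusted p = 0.38) and Cdk1 0.25 ± 0.10 (adjusted p = 0.488). For these 3 all mutants lay above all controls, as for 9.72% of all genes. Cdk2, a kinase that p21 inhibits, gave 0.04 ± 0.14, and Pcna, the replication clamp that p21 binds, 0.11 ± 0.10. Among 14 proliferation markers 0 passed, with a median of 0.10; Top2a gave 0.44 ± 0.16, Ccnb2 0.18 ± 0.10 and Cdc20 0.29 ± 0.17. Of the 14, 10 were above 0, against 52.4% of all genes, and Mki67 gave -0.03 ± 0.20.

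The BCL2 family and caspase list had 16 tested genes of 24, with a median of 0.03. In limma's test 0 passed, and 0 reached an unadjusted p under 0.05. Pmaip1 had the smallest p, followed by Apaf1 and Bik, a BH3 gene at 0.30 ± 0.16 (SE). Of the proteins that hold death in check, Bcl2 gave 0.19 ± 0.17, Mcl1 0.01 ± 0.22 and Birc5 0.04 ± 0.10.

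Across the 6 arrays the genes most like Cdkn1a were sought by Pearson's r, given as a description over 2757 genes that were above background on all arrays and varied by an SD of at least 0.3. The closest were Pla2g1b (r = 0.998), the fast skeletal troponin T gene Tnnt3 (0.996), Epb41l4a (0.984), Rcan3 (0.984) and the brighter probe of the matrix gene Vcan (0.975), whose dimmer probe differed by 0.08 between the groups. Tnnt3 read 10.08, 10.98 and 10.72 in the mutants against 8.55, 8.18 and 7.15 in the controls, in the same order of arrays as Cdkn1a. The most opposite were Fhl1 (-0.994), Postn (-0.983) and Ncam1 (-0.982), whose difference of -1.59 became -0.54 in the mean of its probes. In all 8 the groups did not overlap, as for 15.2% of all genes. These 8 were chosen for likeness to Cdkn1a, whose groups are separate, so their separation is no further result. The arrays also share their hybridisation and normalization. Among the members, r with Cdkn1a was 0.73 for Pmaip1, 0.46 for Bbc3, 0.35 for Mdm2, 0.10 for Ccng1, -0.80 for Cdkn2c and -0.87 for Cdkn2d.

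Dicer1, the targeted gene, was at 6.72 ± 0.03 in the mutants against 7.72 ± 0.10 in the controls (SD, n = 3 each). It fell by 1.0 (log2, limma adjusted p = 0.036). Its probe was dim, so the offset shrinks this fall. On the authors' normalized intensity the log2 difference was -1.61. Where the probe lies relative to the deleted part is not known here. Of 9 cardiomyocyte markers tested, Tnnt2 averaged 14.62 in mutants and 14.17 in controls and Actc1 15.11 and 15.14, while Myh6 (6.54 and 6.25) and Ryr2 (6.53 and 6.65) read low; the median difference was 0.10 and the sums 153000 to 177000 and 123000 to 181000. Endocardial markers were above 0 in 1 of 9 genes, with a median of -0.13. Their summed intensities were 6620 to 7750 in mutants and 7710 to 8280 in controls. Erythroid markers were above 0 in 1 of 10, with a median of -0.29 and sums of 115000 to 123000 and 123000 to 129000. The cardiomyocyte and erythroid sums rest largely on probes near the top of the scale, such as Hbb-bh1 at 15.22 in every mutant. Such probes can miss a difference. Per array, 184 to 263 spots were flagged saturated. Cushion markers had a median of -0.29, with 3 of 9 above 0, but their sums were higher in every mutant, 11800 to 13200 against 10200 to 11300. Fbln1 was at 0.71 and the brighter probe of Vcan at 0.61, with its dimmer probe at 0.08. In the other direction, Postn was at -0.56 and Lum and Col1a1 at -0.60. Epicardial markers had a median of -0.17, with sums of 5640 to 7990 and 5970 to 12300. Neural and neural crest markers had a median of -0.09, with 2 of 9 above 0 and sums of 1110 to 1430 and 1150 to 2140. The part of these differences in the values of Cdkn1a and the other members was not tested. Of 8 leukocyte and platelet markers with a probe 6 were tested, with a median of 0.17 and sums of 1500 to 2080 in mutants and 1220 to 1660 in controls, and Ptprc and Itgam were above background on 0 arrays. Of 6 liver markers 5 were tested, with a median of -0.05 and sums of 1890 to 2030 and 1720 to 2800, and Alb was above background on 1 array. Between 74.1% and 78.2% of spots per array were above background. On the first principal component (54.1% of the variance) controls 1 and 2 were at 37.27 and 26.30, mutants 1 and 2 at -18.33 and -30.07, mutant 3 at 5.63 and control 3 at -20.79, so control 3 lay on the side of the mutants.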

How the data were processed

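Per the file headers, the deposited file of each array gives for every spot its mean intensity, local background median, quality flag and subtracted and normalized intensity. The values show that the authors' normalized intensity is the subtracted intensity divided by a value per array (66.1 to 82.8), and the series' value table repeats it for spots flagged good. Scanner software is not named in the labels. Each array has 36227 spots, 21880 of them listed with a gene in the platform annotation. Symbols were checked against RefSeq (GRCm38.p6) by gene number, which matched 21541 spots. Spot means were corrected with normexp (offset 50) over all spots in limma 3.58.1 (R 4.3.3), then log2-transformed and quantile-normalized over the listed spots. Probes above background (no L or M flag) on at least 3 of 6 arrays were fitted with lmFit and eBayes, two-sided, with Benjamini-Hochberg adjustment over all 17727 probes. Intervals are 95%. The brightest probe stood for a gene. Differences are mutant minus control, and the offset shrinks them for dim probes. The number of arrays limits the precision. No library depth exists for arrays. The fit was tested on simulated data. Members and lists were chosen with earlier results of these data known; lists came from general knowledge. Named were all members, Dicer1, the passing or otherwise the 3 smallest-p genes of each pathway list, and the 5 most and 3 least Cdkn1a-like genes, clone names left out; others are said to be chosen after their values were seen, or given as list members without a call. Alternatives covered background correction, offset, authors' values, normalization, filter, weights, variance model, blocks, probe averaging and each array left out.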

Additional observations from a re-analysis of the deposited data

How the results depend on the processing

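Of 654 values of named genes under up to 22 alternatives each, 12 changed sign, all of Mdm2, Ccng1 or the brighter Cdkn2c probe and none with a call. Pmaip1 and Bbc3 stayed above 0 and Cdkn2d and the dimmer Cdkn2c probe below 0, none of them with a call; Mdm2 ranged from -0.07 to 0.07 and Ccng1 from -0.36 to 0.10. Cdkn1a was called with array weights, at 1.33, and without control 3, at 1.19, and over the arrays left out in turn it ranged from 1.19 to 1.70; the number of member probes called was 1 in those 2 settings, so 0 to 1 over the arrays left out, and 0 in the others. The 9 probes called in all (5 higher, 4 lower) became 5 with the subtracted intensity (2 higher), 4 with the authors' normalized intensity (1 higher), 4230 with array weights (23.9% of probes), 1339 with the title code as a block (7.56%), and 0 to 320 over the arrays left out (1.81% without control 3). Array weights ran from 0.29 in mutant 3 and 0.324 in control 3 to 5.85 in control 2. These shares are the background for the list counts. Of 38 p53 targets 9 were called with array weights. Cdkn1a, Zmat3 and Psrc1 were higher there, and Tnfrsf10b, Gadd45a, Apaf1, Rprm, Trp53i11 and Tgfa lower. Over the arrays left out 0 to 3 were called. Those 3, without control 3, were Cdkn1a, higher, and Gadd45a and Tgfa, lower. Of 18 p53 regulators 6 were called with array weights, Trp63 lower and the others higher, and 0 to 2 over the arrays left out. Array weights also called 1 CDK inhibitor gene (0 to 1 over the arrays left out), 2 BCL2 family genes and 3 proliferation markers. In the list of cyclins and kinases they called 4 genes, Ccne2, Ccna2, Cdc25a and Cdk1. List counts with the title code as a block are left out, since that fit rests on 1 control array. Dicer1 lost its call under 6 alternatives, the replicate block and 5 of the 6 arrays left out, with log2 differences of -1.05 to -0.95. The cause of these moves was not tested.

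With the number in the middle of the array titles as a replicate block, 0 probes passed in limma's test, 1322 had an unadjusted p under 0.05, and Cdkn1a gave 1.49 (adjusted p = 0.525). Each number is shared by a mutant and a control, and what it stands for is not stated. Arrays that share the number deviated from their group means with correlations of 0.01, -0.48 and -0.38 over probes. With so few pairs these correlations cannot decide whether the arrays were paired. The number was left out of the main fit. Setting irregular spots to missing and normalizing over all spots were chosen after seeing the data.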
